A study of Homo sapiens with 4 samples.

Results

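Messenger RNA for the nuclear pore complex and for the carriers that move through it was compared between A549 cells depleted of RALY and control cells. The 40 genes, 27 nucleoporins and 13 transport factors, were chosen by symbol, with earlier results of these data known. All 40 symbols matched 1 gene identifier each among the 58735 genes of the count files. Every one of the 40 was abundant enough to be tested.

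Nuclear pores are large protein channels that span the nuclear envelope. Scaffold nucleoporins form stacked rings, membrane nucleoporins anchor them, and nucleoporins with phenylalanine-glycine repeats fill the channel and line both faces. Importins and exportins carry proteins and RNA through the channel, and the small GTPase Ran, loaded with GTP in the nucleus, tells them when to bind and when to release their load. Pores of cells in division are taken apart and rebuilt, and new pores are inserted as the nucleus grows before division.

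A549 is a human lung adenocarcinoma line, described in the labels as alveolar basal epithelium. Its cells were infected with a lentivirus carrying a control hairpin (shControl, genotype labelled WT) or a hairpin against RALY (shRALY, genotype labelled RALY knockdown), and both groups were labelled day 2. RALY encodes an hnRNP protein that binds RNA. Polyadenylated RNA was sequenced from 2 libraries per group, and the sources used here do not give the hairpin sequences, the number of hairpins or whether replicates were separate cultures. The p-values therefore reflect only how far these libraries differ, which may be technical. The question was how loss of RALY changed the expression of genes in this line.

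Total counts were 16745818 to 18632787 per library. RALY itself was lower in both shRALY libraries, at 40.9 and 41.5 CPM (a gene's count relative to the TMM-adjusted library size, on the standard CPM scale) against 123 and 133 CPM in shControl (log2 fold change -1.64, SE 0.11, edgeR adjusted p = 5.85e-11). Among 5 epithelial markers, the keratins KRT8 and KRT18 were abundant in every library; KRT18 shares 43.4% of its words (stretches of 50 bases) with other genes, most with KRT8, so its counts are uncertain. KRT19 (90.2 and 101 against 324 and 299 CPM; edgeR adjusted p = 1.35e-11) and CDH1 (19.6 and 26.9 against 29.4 and 34.9 CPM; edgeR adjusted p = 0.019) were higher in shRALY, and EPCAM was at 2.29 to 3.54 CPM. Of 6 alveolar type II markers, 5 were under 1 CPM in every library, the surfactant genes among them, and ABCA3 was at 72.2 to 103 CPM. Of 3 basal cell markers, KRT5 and KRT14 were under 1 CPM in every library, and TP63 was lower in shRALY (3.35 and 3.29 against 1.36 and 1.59 CPM; edgeR adjusted p = 0.00726). Of 8 immune cell markers, 6 were under 1 CPM in every library, and the 8 summed to 8.25 to 11.7 CPM with no separation of the groups. Of 7 fibroblast and endothelial markers, 5 were under 1 CPM in every library, with sums of 19.5 and 20 CPM in shControl and 14.1 and 17.7 CPM in shRALY. Counts are also uncertain for KRT14, CD68, LYZ and PDGFRA. They share 23.8%, 97.4%, 42.5% and 22.8% of their words with other genes, in that order. The part of all these cell type markers in the results was not tested. The shControl libraries lay further apart than the shRALY libraries: over the 40 genes, the median gap between the replicates of a group was 0.20 on the log2 scale in shControl and 0.08 in shRALY.

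Most genes of the pore and of transport were lower in shRALY. Of the 40, 31 were lower and 3 higher at an edgeR adjusted p under 0.05, and 6 did not pass. Over all 15912 tested genes, 20.4% were called lower and 20.6% higher, 41% in all. Among the 10106 genes at least as abundant as the rarest of the 40, 25.5% were lower and 25.1% higher. Among the 3303 genes at or above the lower quartile of the 40 genes' abundance (68.1 CPM), 27.9% were called lower and 29.4% higher. The median log2 fold change was -0.60 over the 40 genes and -0.01 over all tested genes. Falls of 2-fold or more were seen for 4 of the 40, KPNA2, NDC1, RCC1 and NUP188, or 10% of them, against 6.57% of all tested genes. None of the 40 was 2-fold or more higher, against 6.99% of all tested genes. In 34 of the 40, both shRALY libraries lay below both shControl libraries, and in 4 both lay above; over all tested genes these shares were 35.4% and 34.2%. In bulk libraries scaled to each other, a lower share of a transcript cannot be told apart from fewer cells that express it, and a change in the RNA content of a cell would not be seen. With shRALY replicate 1 or 2 left out, 22 of the 40 were lower in each case and KPNA5 alone was higher; over all tested genes 1897 and 1980 were then lower and 2260 and 2040 higher, in place of 3245 and 3274.

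**Figure D1:**
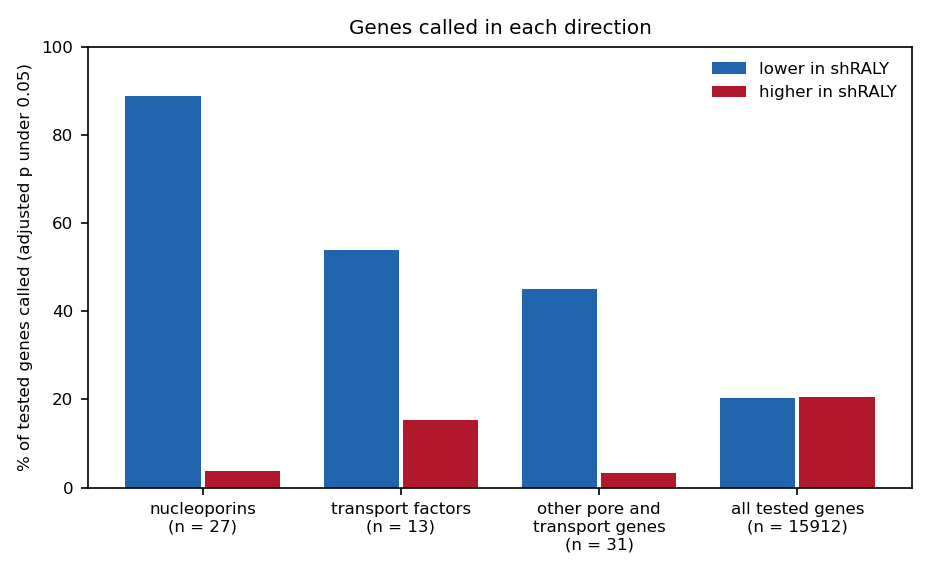
Share of tested genes called lower (blue) or higher (red) in shRALY by edgeR (adjusted p below 0.05), in percent, for the nucleoporins, the transport factors, the 31 further pore and transport genes tested and all tested genes. Lower calls reach 88.9% of the nucleoporins and 53.8% of the transport factors, beside 20.4% of all tested genes.

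Among the nucleoporins 24 of 27 were lower, 1 was higher and 2 did not pass. The summed level of the 27 was 3098 and 3110 CPM in the shControl libraries and 2022 and 2048 CPM in the shRALY libraries. The plot of changes by role shows the single exception among them, SEC13, on the right of the zero line.

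**Figure D2:**
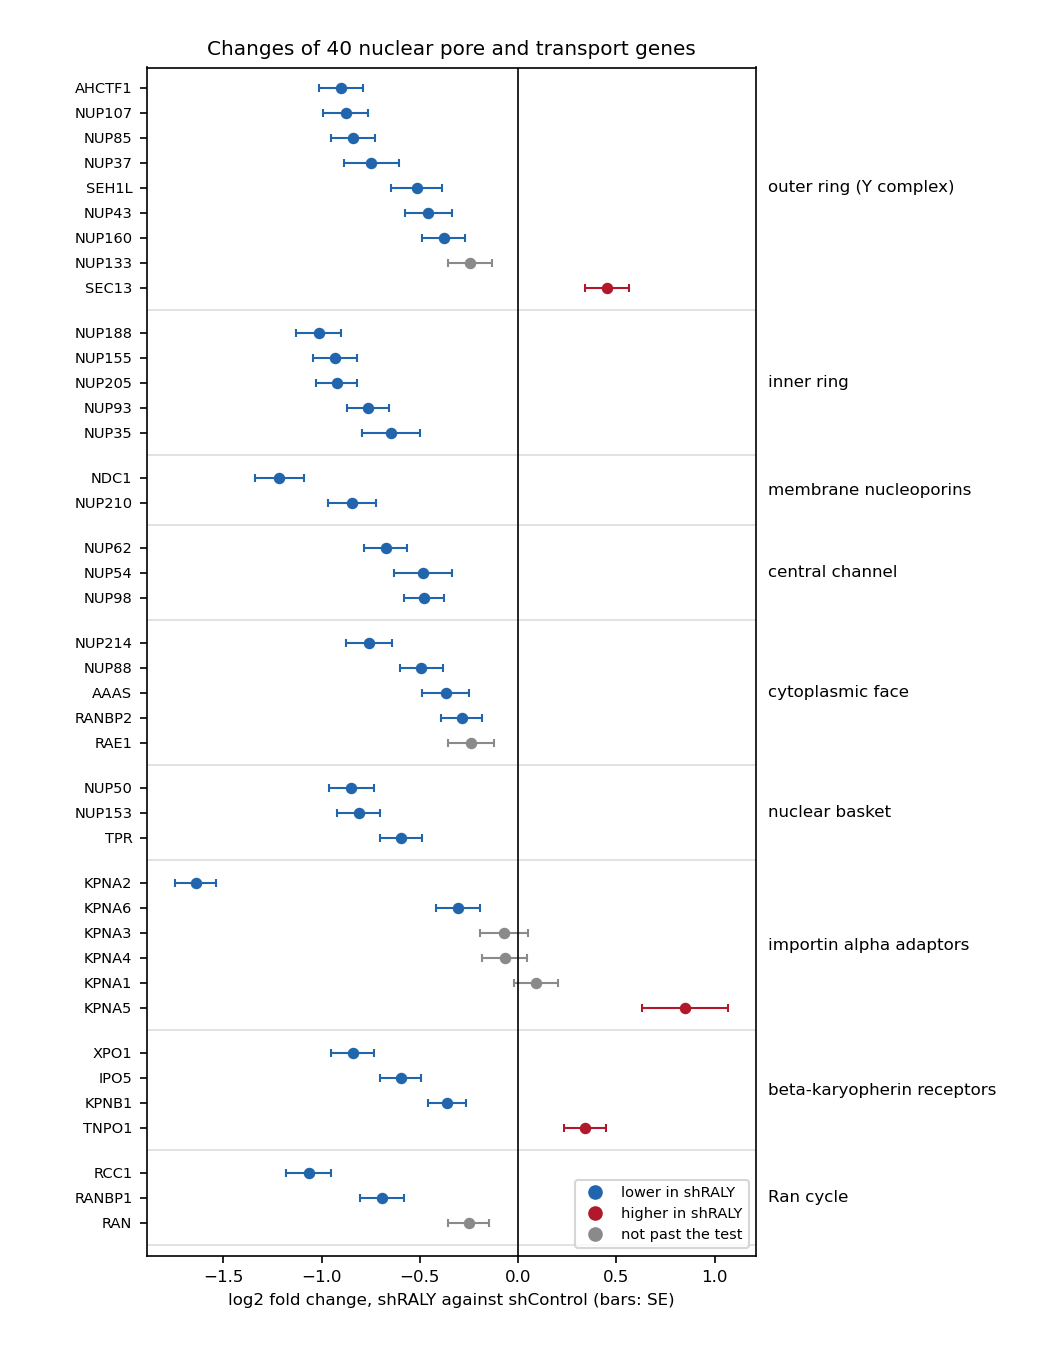
Log2 fold change of each of the 40 genes, shRALY against shControl (points; bars are the standard error of the edgeR fit, 2 libraries per group), grouped by place in the pore or role in transport. Blue points were called lower, red points higher and grey points did not pass an adjusted p of 0.05. Points reach from -1.64 for KPNA2 to 0.85 for KPNA5, and every gene of the inner ring, the membrane group, the channel and the basket is blue.

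The outer ring, or Y complex, is the scaffold that coats both faces of the pore. Of its 9 genes, 7 were lower, 1 was higher and 1 did not pass, with a median log2 fold change of -0.52. AHCTF1 encodes ELYS, which binds chromatin and starts pore assembly at the end of mitosis. Its level was 142 and 129 CPM in shControl and 70.3 and 74.8 CPM in shRALY, 1.87-fold lower (log2 -0.90, SE 0.11, edgeR adjusted p = 7.3e-07). AHCTF1 shares 48.4% of its 50-base sequence words with other genes, most with its pseudogene AHCTF1P1, so its counts are uncertain. NUP107, at the stem of the Y, stood at 113 and 96.8 CPM against 58.5 and 55.8 CPM (log2 -0.88, SE 0.12, edgeR adjusted p = 1.9e-06). NUP85, in one of its arms, stood at 106 and 107 CPM against 61.9 and 57.7 CPM (log2 -0.84, SE 0.11, edgeR adjusted p = 1.91e-06). For these 3 genes the highest shRALY library was well under the lowest shControl library. The small propeller subunit NUP37 fell from 38.4 and 32.5 to 22.3 and 19.9 CPM (log2 -0.75, edgeR adjusted p = 0.000171).

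Smaller falls in the outer ring kept their size, but not their calls, when either shRALY library was left out. Such a fit takes its spread from the shControl pair alone. SEH1L, which also serves in a complex that senses amino acids for the mTORC1 kinase, went from 50.8 and 41.8 to 32.3 and 32.5 CPM (log2 -0.52). NUP43 went from 54.3 and 51 to 39 and 37.7 CPM (log2 -0.46), and NUP160, a long scaffold arm, from 136 and 122 to 99.1 and 98.8 CPM (log2 -0.38). These 3 passed edgeR with adjusted p of 0.00261, 0.00351 and 0.00765. Without shRALY replicate 1 the edgeR adjusted p was 0.0606 for SEH1L, 0.0774 for NUP43 and 0.16 for NUP160. Without shRALY replicate 2 it was 0.0596, 0.123 and 0.171 in the same order, and the log2 fold changes stayed between -0.51 and -0.37. NUP133, which joins neighbouring Y complexes, did not pass at 83.4 and 78.1 CPM in shControl and 68.8 and 67.3 CPM in shRALY (log2 -0.25, edgeR adjusted p = 0.0809), although the groups did not overlap. It passed without shControl replicate 2 (adjusted p = 0.0151 in edgeR, log2 -0.28), with library size alone (log2 -0.30, edgeR adjusted p = 0.0326) and in the fit that blocks on replicate number (edgeR adjusted p = 0.0464).

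SEC13 went the other way. It is shared between the pore, the COPII coat of vesicles that leave the endoplasmic reticulum, and the amino acid sensing complex that also holds SEH1L. SEC13 (ENSG00000157020) lies on the minus strand of chromosome 3 at 10293131 to 10321178 in GRCh38. Its level was 104 and 124 CPM in shControl and 156 and 155 CPM in shRALY, 1.37-fold higher (log2 0.45, SE 0.11, edgeR adjusted p = 0.00243). The call was lost without shRALY replicate 1 (adjusted p = 0.0649 in edgeR, log2 0.45), without shRALY replicate 2 (adjusted p = 0.0526 in edgeR, log2 0.47) and in a test against a 1.2-fold change (edgeR adjusted p = 0.0528). The shControl libraries differed by 0.26 on the log2 scale for SEC13, and both remained below both shRALY libraries.

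All 5 inner ring genes were lower, with a median log2 fold change of -0.92, and all 5 kept their call when any 1 library was left out. NUP188 (ENSG00000095319, plus strand of chromosome 9, 128947699 to 129007096) and NUP205 are related large scaffold proteins that bind NUP93. NUP188 stood at 122 and 142 CPM in shControl and 63.4 and 67.2 CPM in shRALY, 2.02-fold lower (log2 -1.01, SE 0.11, edgeR adjusted p = 1.94e-07). NUP205 stood at 204 and 201 CPM against 103 and 111 CPM (log2 -0.92, SE 0.11, edgeR adjusted p = 2.41e-07). The pair changed by nearly the same amount; the difference between their changes was not tested. NUP155, which touches the membrane, went from 101 and 97 to 54.1 and 49.7 CPM (log2 -0.93, edgeR adjusted p = 5.61e-07). NUP93, the hub of the ring, went from 136 and 133 to 77.3 and 81.3 CPM (log2 -0.77, edgeR adjusted p = 4.84e-06). In both genes the gap between groups was many times the gap between replicates. NUP35, the membrane-binding linker, went from 37.6 and 29.7 to 22.6 and 20.4 CPM (log2 -0.65, edgeR adjusted p = 0.00104). It was the lowest of the 5 in CPM, which does not allow for gene length.

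Both membrane nucleoporins were lower, and NDC1 had the largest fall of all 27 nucleoporins. NDC1 is a membrane-spanning protein needed to insert pores into the envelope. NDC1 (ENSG00000058804, minus strand of chromosome 1, 53765460 to 53838860) stood at 119 and 96.2 CPM in shControl and 49.3 and 43.1 CPM in shRALY, 2.32-fold lower (log2 -1.22, SE 0.13, edgeR adjusted p = 4.33e-08). NUP210, a glycoprotein whose bulk lies in the lumen of the envelope, stood at 219 and 290 CPM against 132 and 151 CPM (log2 -0.85, SE 0.12, edgeR adjusted p = 7.22e-06). NUP210 varied most between the shControl libraries of any nucleoporin, by 0.40 on the log2 scale, and its fall was -0.62 without shControl replicate 2 and -1.04 without shControl replicate 1, past the edgeR threshold in both.

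The channel genes were lower by smaller amounts. All 3 passed, with a median log2 fold change of -0.48. NUP62 and NUP54 form the coiled core of the channel, and NUP98 makes a repeat-rich protein whose precursor is also cut to yield the Y complex subunit NUP96. NUP62 stood at 154 and 181 CPM in shControl and 106 and 104 CPM in shRALY (log2 -0.67, SE 0.11, edgeR adjusted p = 3.5e-05). Its counts are uncertain, since 31.3% of its sequence words occur in transcripts of other genes, most in ATF5. NUP98 stood at 209 and 210 CPM against 156 and 145 CPM (log2 -0.48, SE 0.10, edgeR adjusted p = 0.000736), and lost its call without shRALY replicate 2 (adjusted p = 0.0964 in edgeR, log2 -0.42). NUP54 was lower, at 35.1 and 26.7 CPM against 21.8 and 22.4 CPM (log2 -0.48, SE 0.15, edgeR adjusted p = 0.0118). It lost its call without shControl replicate 1 (adjusted p = 0.116 in edgeR, log2 -0.28), without shRALY replicate 1 (adjusted p = 0.122 in edgeR, log2 -0.46) and without shRALY replicate 2 (adjusted p = 0.0892 in edgeR, log2 -0.49).

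On the cytoplasmic face, 4 of 5 genes were lower and the median log2 fold change was -0.37. NUP214, a repeat protein of the cytoplasmic filaments, went from 89.1 and 104 to 54.5 and 59.8 CPM (log2 -0.76, SE 0.12, edgeR adjusted p = 1.63e-05). Its partner NUP88 went from 90.4 and 87.5 to 61.7 and 64.8 CPM (log2 -0.49, SE 0.11, edgeR adjusted p = 0.00103), which did not hold without shRALY replicate 1 (adjusted p = 0.0855 in edgeR, log2 -0.45). RANBP2, a giant filament protein that anchors the Ran GTPase activator, and AAAS, the gene mutated in triple A syndrome, had shallow falls. RANBP2 went from 210 and 194 to 164 and 167 CPM (log2 -0.29, edgeR adjusted p = 0.0306), and 26.6% of its words are shared, most with RGPD3 of the family of its partial copies. AAAS went from 61.8 and 73.7 to 53.6 and 51.2 CPM (log2 -0.37, edgeR adjusted p = 0.0167). Neither call held when 1 shRALY library was left out. Without replicates 1 and 2, the log2 fold change was -0.268 and -0.289 for RANBP2, and -0.396 and -0.326 for AAAS. AAAS was also lost without shControl replicate 2 (adjusted p = 0.0773 in edgeR, log2 -0.22). RAE1, an mRNA export factor that binds NUP98, did not pass at 63.9 and 54.5 CPM against 49.8 and 50.6 CPM (log2 -0.24, edgeR adjusted p = 0.115). It passed without shControl replicate 2 (adjusted p = 0.00634 in edgeR, log2 -0.34), and was -0.13 without shControl replicate 1 (adjusted p = 0.357 in edgeR).

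The nuclear basket, which projects into the nucleus, was lower throughout its 3 genes, with a median log2 fold change of -0.81. NUP50 binds importin alpha and speeds the release of cargo. It stood at 83.1 and 81.3 CPM in shControl and 47.2 and 44.1 CPM in shRALY (log2 -0.85, SE 0.11, edgeR adjusted p = 2.35e-06). NUP153, which tethers the basket, stood at 122 and 118 CPM against 66.7 and 69.8 CPM (log2 -0.81, SE 0.11, edgeR adjusted p = 2.49e-06). TPR, the coiled-coil protein of the basket filaments, stood at 213 and 209 CPM against 132 and 147 CPM (log2 -0.60, SE 0.11, edgeR adjusted p = 8.71e-05). The shControl replicates were close for all 3 genes. In shRALY, TPR had the widest replicate gap of the 3, with replicate 1 below replicate 2 (log2 -0.16). Each of the 3 calls held when any 1 library was left out.

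**Figure D3:**
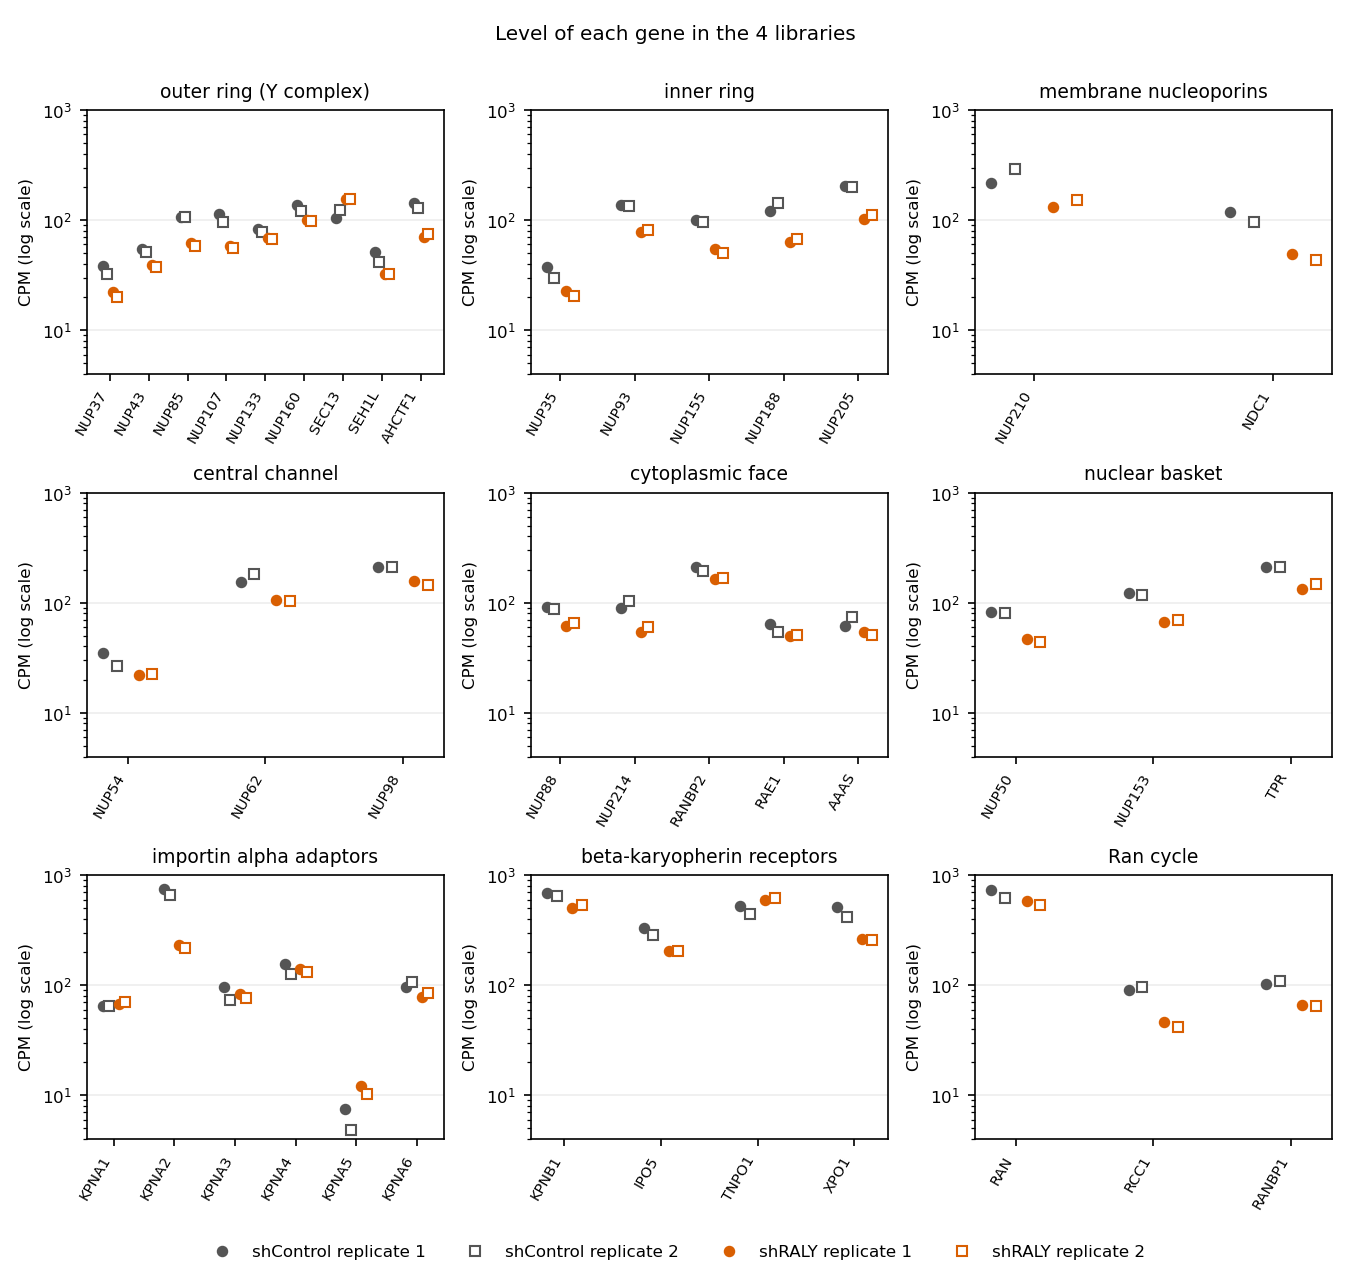
Level of each of the 40 genes in each library, in CPM on a log scale, by place in the pore or role in transport. Grey symbols are shControl and orange symbols shRALY, with filled circles for replicate 1 and open squares for replicate 2. Orange symbols lie below grey ones in most panels, SEC13, KPNA1, KPNA5 and TNPO1 have them above (KPNA1 did not pass the test), and for KPNA3 and KPNA4 they overlap.

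Transport factors were less uniform than nucleoporins in their calls: 7 of 13 were lower, 2 higher and 4 did not pass. The difference between the 2 sets was not tested. The importin alpha family, adaptors that bind nuclear localisation signals and hand them to importin beta, held the widest spread. Of its 6 genes, 2 were lower, 1 was higher and 3 did not pass, with a median log2 fold change of -0.07.

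KPNA2 had the largest change of all 40 genes. KPNA2 (ENSG00000182481, plus strand of chromosome 17, 68035519 to 68046842) encodes importin alpha 1, the family member best known for high levels in dividing and tumour cells. Its level was 751 and 656 CPM in shControl and 234 and 217 CPM in shRALY, 3.12-fold lower (log2 -1.64, SE 0.11, edgeR adjusted p = 1.76e-11). The log2 fold change lay between -1.72 and -1.55 over the 12 alternative analyses, and passed the test in each. KPNA2 shares 17.3% of its words with other genes, most with ARHGAP27P1-BPTFP1-KPNA2P3, a read-through transcript of pseudogenes.

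KPNA5, the rarest of the family per kilobase of exon, moved up. KPNA5 (ENSG00000196911, plus strand of chromosome 6, 116681187 to 116741866) had 135 and 83 counts in shControl and 222 and 169 in shRALY. In CPM these are 7.54 and 4.87 against 12.1 and 10.3, 1.80-fold higher (log2 0.85, SE 0.22, edgeR adjusted p = 0.0033). The shControl libraries differed by 0.63 on the log2 scale, the largest replicate gap of the 40 genes, and the log2 rise was 1.198 without shControl replicate 1 and 0.589 without shControl replicate 2, past the edgeR threshold both times.

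The other adaptors changed less than KPNA2 and KPNA5. KPNA6 was lower, at 95.8 and 107 CPM in shControl and 78.3 and 85.7 CPM in shRALY (log2 -0.31, edgeR adjusted p = 0.0337). That call was lost without shControl replicate 2 (edgeR adjusted p = 0.0646), shRALY replicate 1 (0.429) or shRALY replicate 2 (0.184), and with DESeq2 (adjusted p = 0.0592), at log2 fold changes of -0.36 to -0.21. KPNA3 (95.8 and 73.7 against 84.2 and 77 CPM) and KPNA4 (157 and 128 against 140 and 131 CPM) overlapped between groups, at log2 -0.07 for each. KPNA1, at 64.9 and 64.3 against 67.1 and 70.4 CPM, did not pass (log2 0.09, edgeR adjusted p = 0.558). For KPNA3 and KPNA4 the sign changed with the library left out: without shControl replicate 1 the values were 0.13 and 0.09, not past the test, and without shControl replicate 2 KPNA3 passed at -0.23 (edgeR adjusted p = 0.0427).

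Per kilobase of exon, which allows levels to be set side by side between genes, KPNA2 made up 80.2% and 80% of the 6 adaptors' summed level in shControl and 58.4% and 57.1% in shRALY. KPNA3 was next, at 7.17% and 6.31% against 14.7% and 14.3%. Shares add up to the whole, so those of the other genes rise where KPNA2 falls. In level, KPNA3 stood at 21.4 and 16.5 CPM per kb in shControl and 18.8 and 17.2 CPM per kb in shRALY. KPNA5 stayed under 1% in every library. The order of levels among the 6 genes in shControl, KPNA2, KPNA3, KPNA4, KPNA6, KPNA1 and KPNA5 by group mean, was the same in shRALY. Neighbours in the middle of that order overlapped: KPNA3 with KPNA4, and KPNA4 with KPNA6, in shControl.

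**Figure D4:**
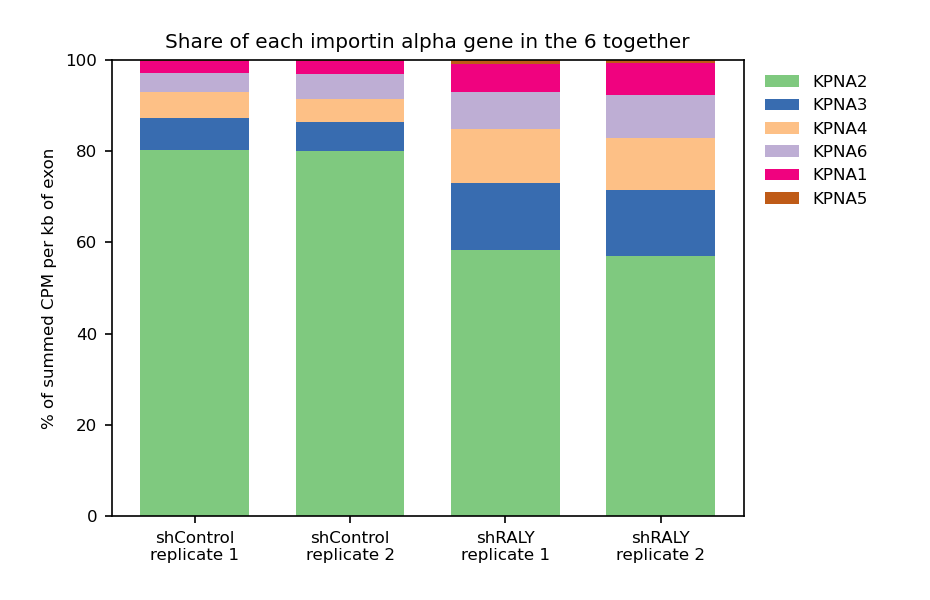
Share of each importin alpha gene in the summed level of the 6, in percent of CPM per kilobase of exon, 1 stacked bar per library. KPNA2 takes about 80% of the bar in the shControl libraries and 57.1 to 58.4% in the shRALY libraries.

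Of the 4 receptors of the importin beta family, 3 were lower and 1 higher. XPO1 (CRM1) exports proteins with leucine-rich signals and, through adaptors, several RNAs. XPO1 (ENSG00000082898, minus strand of chromosome 2, 61477849 to 61538626) went from 512 and 418 to 263 and 256 CPM, 1.79-fold lower (log2 -0.84, SE 0.11, edgeR adjusted p = 1.51e-06). IPO5, an importer of ribosomal proteins, went from 330 and 287 to 205 and 203 CPM (log2 -0.60, SE 0.11, edgeR adjusted p = 8.03e-05). Both held when any 1 library was left out. KPNB1, importin beta itself and the partner of every adaptor above, went from 689 and 649 to 507 and 534 CPM (log2 -0.36, SE 0.10, edgeR adjusted p = 0.00509). KPNB1 lost its call without shRALY replicate 1 (adjusted p = 0.215 in edgeR, log2 -0.32) and without shRALY replicate 2 (adjusted p = 0.11 in edgeR, log2 -0.39).

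TNPO1, transportin 1, imports hnRNP proteins and other RNA-binding proteins. TNPO1 (ENSG00000083312, plus strand of chromosome 5, 72816312 to 72916733) stood at 524 and 440 CPM in shControl and 596 and 624 CPM in shRALY, 1.27-fold higher (log2 0.34, SE 0.11, edgeR adjusted p = 0.0122). The groups did not overlap. The call was lost without shRALY replicate 1 (adjusted p = 0.114 in edgeR, log2 0.38) and without shRALY replicate 2 (adjusted p = 0.201 in edgeR, log2 0.32).

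In the Ran cycle, the 2 regulators were lower and RAN did not pass. RCC1, the chromatin-bound exchange factor that loads Ran with GTP, fell most. RCC1 (ENSG00000180198, plus strand of chromosome 1, 28505943 to 28539300) went from 90 and 95.8 to 46.8 and 41.9 CPM, 2.09-fold lower (log2 -1.07, SE 0.12, edgeR adjusted p = 1.04e-07). RANBP1, which helps to unload Ran from receptors in the cytoplasm, went from 103 and 109 to 65.8 and 65.4 CPM (log2 -0.69, SE 0.11, edgeR adjusted p = 2.2e-05). RANBP1 shares 43.4% of its words with other genes, most with TRMT2A, so its counts are uncertain. RAN stood at 727 and 619 CPM in shControl and 589 and 541 CPM in shRALY (log2 -0.25, SE 0.10, edgeR adjusted p = 0.0574). RAN passed without shControl replicate 2 (adjusted p = 0.000888 in edgeR, log2 -0.35), with library size alone (edgeR adjusted p = 0.0226), among protein-coding genes alone (edgeR adjusted p = 0.0483) and in the fit that blocks on replicate number (edgeR adjusted p = 0.00867). It did not pass in the other 8 alternative analyses, and was -0.14 without shControl replicate 1 (adjusted p = 0.214 in edgeR) and -0.18 without shRALY replicate 2 (adjusted p = 0.521 in edgeR).

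Per kilobase of exon, KPNA2 was the most abundant of the 40 in shControl at 224 CPM per kb, followed by RAN at 139 and KPNB1 at 87.1. In shRALY the order was RAN at 117, KPNA2 at 71.8 and KPNB1 at 67.8 CPM per kb. On this measure nucleoporins stood below KPNA2, RAN and KPNB1. They ran from 4.42 (SEH1L) to 31.1 (NUP210) CPM per kb in shControl and from 3.09 (SEH1L) to 28.5 (SEC13) CPM per kb in shRALY. These levels use the union of annotated exons as length, and a gene with long unused exons is understated. The exon union is 5446 bases for SEC13 and 10481 for SEH1L, against 1603 and 3494 for their longest transcripts. The order and the named extremes therefore depend on the length used.

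Sequence upstream of the RefSeq start is shown for 6 of the genes with the largest change in their role. Members that move together invite a look at their promoters. Except for NUP188, the printed stretches lie inside the GENCODE 29 bounds of their genes. The RefSeq promoter table (GRCh38.p14) held 34 of the 40 genes, and the 250 bases before the RefSeq start were searched on both strands for 6 motifs. The words were TTTCCCGC, TTTGGCGC and TTTCGCGC for E2F factors, TTTGAA and TTCGAA for the CHR element of genes active late in the cell cycle, CCAAT for the CCAAT box and CCGGAAG for ETS factors. The NRF1 word is the one in capitals in the first NUP50 line, and the word for the interferon element ISRE was a pair of TTTC blocks with a gap of 2 bases. Each motif was counted by itself where bases overlapped. Capitals below mark a motif. For XPO1 and NUP188 the longest stretch of the window outside annotated exons runs up to the RefSeq start and is shown whole; for the other 4 genes 30 bases around each motif are shown.
KPNA2: cgtgtttTTCAAAtccaCCAATgggcacac
KPNA2: ggctcgaaccagCCAATcggaatgcggagt
NDC1: gctggaccctgcTTCGAAgggaccgtttgg
NDC1: ggccttcctgccTTTGAActgcggtggcgg
RCC1: acattccaggaCTTCCGGgcacttcgtaag
NUP50: agggagctggGCGCATGCGCcgcgtaaggg
NUP50: ccggcggaaggaggtgctactgCCGGAAGc
XPO1: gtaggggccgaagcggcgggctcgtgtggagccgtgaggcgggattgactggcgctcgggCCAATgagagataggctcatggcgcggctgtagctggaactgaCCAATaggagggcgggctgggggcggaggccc
NUP188: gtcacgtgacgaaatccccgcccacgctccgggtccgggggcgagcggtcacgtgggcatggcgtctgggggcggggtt

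The KPNA2 stretches, at chr17:68035629-68035658 and chr17:68035665-68035694 on the plus strand, hold a CHR word with a CCAAT box beside it and a second CCAAT box. The NDC1 stretches, at chr1:53838507-53838536 and chr1:53838310-53838339 on the minus strand, each hold a CHR word. The RCC1 stretch, at chr1:28505982-28506011 on the plus strand, holds an ETS word. The NUP50 stretches, at chr22:45163859-45163888 and chr22:45163895-45163924 on the plus strand, hold an NRF1 word and an ETS word. The XPO1 stretch, at chr2:61538357-61538491 on the minus strand, holds a pair of CCAAT boxes. The NUP188 window held none of the 6 motifs, and its last 79 bases, at chr9:128947620-128947698 on the plus strand, are given.

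Of the 27 lower genes with a promoter in the table, 7 (25.9%) held a CHR word, against 9.45% of 10855 promoters of tested genes and 14.6% of all 27305 promoters. An ETS word was found in 10 of the 27 (37%), against 15.4% and 8.82%. An NRF1 word was found in 3 (11.1%), against 1.93% and 1.13%, and a CCAAT box in 13 (48.1%), against 34.4% and 33%. No E2F or ISRE word was found in the 27, and these words stood in 3.73% and 2.38% of the promoters of tested genes. Among the 2407 promoters of all genes lower in shRALY, 11.2% held a CHR word, 16% an ETS word and 2.37% an NRF1 word. A CCAAT box stood in 38.8% of the 2407, an E2F word in 5.69% and an ISRE word in 1.79%. Among the 7 genes with a promoter that were not lower, 1 held a CCAAT box, 1 an ETS word and none a CHR, NRF1, E2F or ISRE word. These are matches of letters in short windows, given as a description with no test.

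Transport genes outside the 40 were also lower more often than higher. Other pore genes were not, with 1 lower (11.1%) and 1 higher of 9 tested. Of the 33 genes of both kinds, 31 were tested. Among these 31, 14 were lower, 1 was higher and 16 did not pass, with a median log2 fold change of -0.27. Lower calls made up 45.2% of these tested genes, beside 20.4% of all tested genes. CSE1L, the exportin that returns importin alpha to the cytoplasm, had the largest fall, from 342 and 281 to 162 and 148 CPM, 2.01-fold (log2 -1.01, SE 0.11, edgeR adjusted p = 1.74e-07). The importin gene IPO9 went from 184 and 191 to 108 and 107 CPM (log2 -0.80, edgeR adjusted p = 1.75e-06). TNPO2, the close relative of TNPO1, was lower, at 54 and 67.2 CPM against 39.6 and 37.2 CPM (log2 -0.66, edgeR adjusted p = 0.000214). TNPO3, an importer of SR splicing factors, went from 116 and 122 to 77.3 and 84 CPM (log2 -0.56, edgeR adjusted p = 0.000242). By role, 7 of 13 other import receptors, 4 of 6 other export receptors, 2 of 3 tested other Ran genes and 1 of 9 tested other pore genes were lower. The last is POM121, named after its value was seen, whose counts are uncertain because 65.7% of its words are shared, most with POM121C.

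The 1 higher gene was TMEM33, a membrane protein of the endoplasmic reticulum and envelope, at 89 and 67.6 CPM against 103 and 95.1 CPM (log2 0.34, edgeR adjusted p = 0.0331). Its call was lost without shControl replicate 2 (edgeR adjusted p = 0.14), shRALY replicate 1 (0.303) or shRALY replicate 2 (0.11), and with library size alone (edgeR adjusted p = 0.0736), at log2 0.17 to 0.41, and it was 0.55 without shControl replicate 1. The highest in CPM of those that did not pass were XPOT, the tRNA exporter (205 and 168 against 188 and 180 CPM; log2 -0.02), and XPO6 (141 and 158 against 123 and 124 CPM; log2 -0.27, edgeR adjusted p = 0.0502). XPO6 passed without shControl replicate 1 (adjusted p = 0.000574 in edgeR, log2 -0.35) and was -0.17 without shControl replicate 2 (adjusted p = 0.116 in edgeR). XPO6 also passed in edgeR with library size alone (adjusted p = 0.0185), among protein-coding genes (0.0455), among genes of at least 10 CPM (0.0498) and in the fit that blocks on replicate number (0.0195). XPOT changed sign without shControl replicate 1 (adjusted p = 0.243 in edgeR, log2 0.13) and without shRALY replicate 2 (adjusted p = 0.951 in edgeR, log2 0.02). Without shRALY replicate 1 or 2, edgeR called 5 or 7 of the genes outside the 40 lower and none higher.

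**Figure D5:**
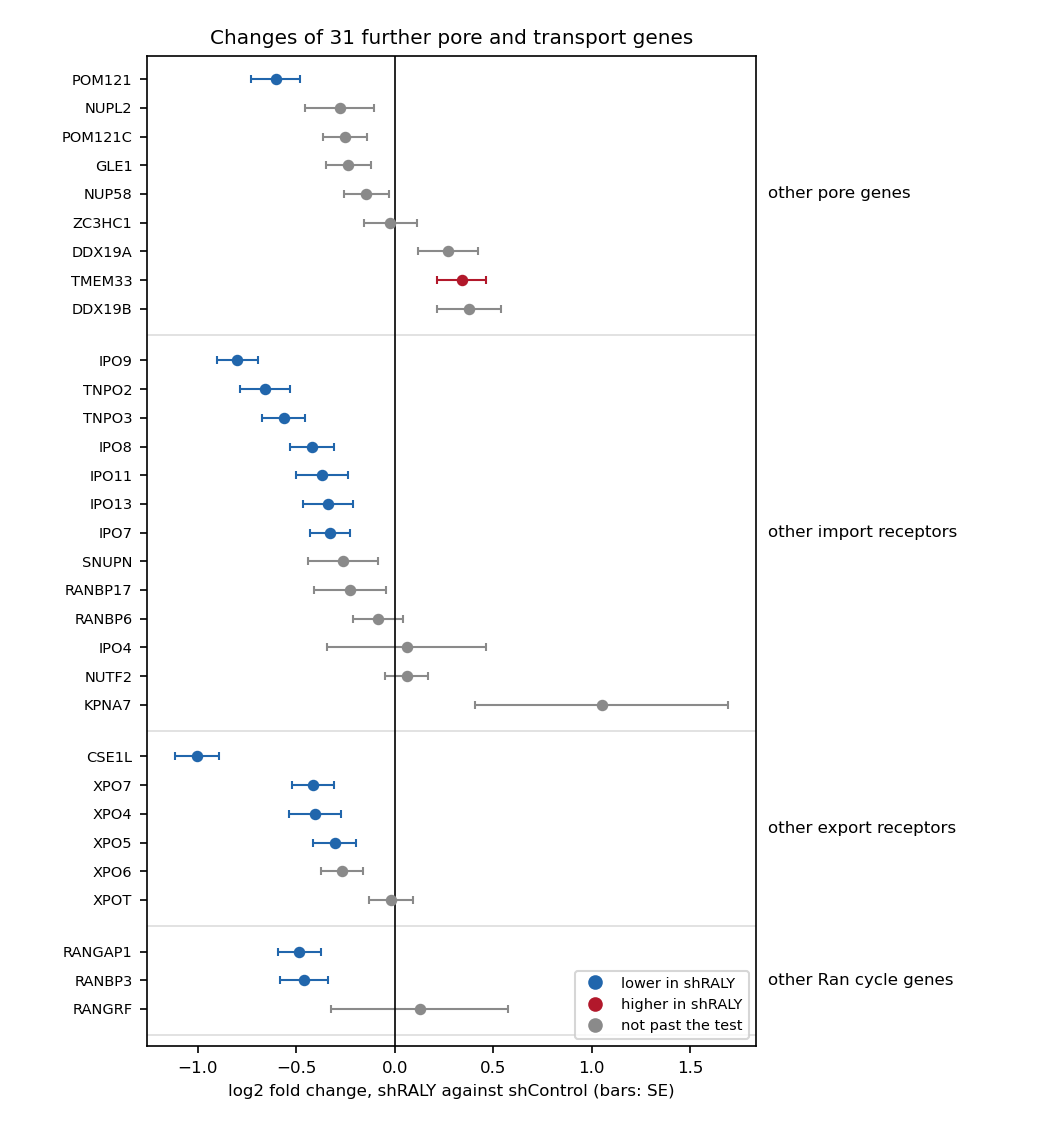
Log2 fold change of the 31 tested pore and transport genes outside the 40, shRALY against shControl (points; bars are the standard error of the edgeR fit, 2 libraries per group), by role. Blue points were called lower, the red point higher, and grey points did not pass an adjusted p of 0.05. CSE1L lies furthest left at -1.01, and KPNA7, with few counts, has the widest bar.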

How the data were processed

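RNA-seq of 4 A549 libraries was used, 2 shControl and 2 shRALY, grouped by their titles. The authors deposited raw counts for Ensembl genes, with a file for each library. Per the submitters' processing notes, HISAT2 2.0.5, featureCounts 1.5.0-p3, DESeq2 1.20.0 and the hg38 build were used, with no role or order given. The sources used here do not give the strand setting, the annotation release or the treatment of multi-mapped reads. All 58735 identifiers matched GENCODE 29 (GRCh38), and 1 line separated by a space was read like the others.

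Counts were tested in edgeR 4.0.16 (R 4.3.3) by the robust quasi-likelihood test, after filterByExpr (minimum count 10, minimum total 15) and TMM scaling, with 2 residual degrees of freedom. The filter kept 15912 genes and 99.83% of counts. P-values were adjusted by Benjamini-Hochberg over all tested genes. Standard errors were derived from the F statistic and the absolute log2 fold change. DESeq2 1.42.0 was an alternative. Both were also run on simulated counts, drawn as independent libraries with far fewer changed genes than were called here. That run does not measure how accurate the calls above are. A gene is called uncertain where the text gives its level and over 20% of its longest transcript's 50-base words occur in other genes. The same holds where over 20% of its exonic bases are overlapped.

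All 40 genes are named, with RALY, and of the other transport genes the 4 smallest adjusted p per direction and the 2 most abundant that did not pass; printed sequences were limited to 6 genes. The members, lists and roles were chosen with earlier results of these data known.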

Additional observations from a re-analysis of the deposited data

How the results depend on the processing

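Over 12 alternative analyses, 21 of the 31 lower genes and 1 of the 3 higher genes (KPNA5, in the 11 that tested it) kept direction and call. The same 21 and 1 were called whichever library was left out. With 1 library left out, the lone library of its group is assumed to vary like the other group. Left-out libraries gave 22 to 33 of the 40 genes lower and 1 to 3 higher, 5 to 16 of the other transport genes lower and 0 to 2 higher, and 1897 to 3499 of all tested genes lower and 2040 to 3559 higher. The test against a 1.2-fold change left 24 lower and 1 higher of the 40, with NUP43, NUP160, NUP54, RANBP2, AAAS, KPNA6, KPNB1, SEC13 and TNPO1 no longer called, and 6 lower and 0 higher of the other transport genes. With library size alone, 0 other transport genes were higher. With the replicate number as a block, 33 of the 40 were lower and 3 higher, and 2 other transport genes were higher. The labels give same-numbered libraries no tie beyond the number, and whether they shared a batch is not known. Their deviations from group means correlated at r = 0.0988 over all 15912 tested genes, not over the 40 alone. DESeq2 called 30 lower and 3 higher of the 40. Without genes of uncertain counts, 27 were lower and 3 higher.

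Without shControl replicate 1 the importin alpha median became 0.089, with KPNA3 at 0.126, KPNA4 at 0.086 and XPOT at 0.127; without shControl replicate 2 these were -0.203, -0.232, -0.195 and -0.14; without shRALY replicate 2, the importin alpha median was -0.004, KPNA3 0.001 and XPOT 0.022. The causes were not tested. With library size alone the median of all tested genes moved to -0.07, that of the 40 to -0.65 and that of importin alpha to -0.13. Of the 40 genes KPNA5 had the fewest counts; 3 counts equal 0.161 to 0.179 CPM. The number of libraries limits precision.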
